A study of Mus musculus with 7 samples.

Results

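The skeletal muscle genes described here are 10 genes of the contractile and energy apparatus of striated muscle fibres: Acta1, Ckm, Myh4, Myh2, Tnnt3, Tnni2, Tnnc2, Mylpf, Myl1 and Atp2a1. They were chosen by symbol, and all 10 were found among the 21878 genes of the count table. RNA was taken from abdominal aortas of C57BL/6 mice, all male and 8 weeks old, that received angiotensin II (Ang II), a pressor peptide used to induce aneurysm, over as long as 28 days. The 4 libraries labelled ApoE-/-Nur77-/- (DKO 1 to DKO 4) carry by their labels a loss of both apolipoprotein E and Nur77, the nuclear receptor encoded by Nr4a1. The 3 libraries labelled ApoE-/- (ApoE 1 to ApoE 3) carry a loss of apolipoprotein E, so that both groups share the ApoE-/- label and the Ang II exposure. The comparison asks what loss of Nur77 changes on that background.

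In a muscle fibre, myosin heavy chains with their light chains pull on actin filaments, and the troponin complex lets them do so when calcium rises. Calcium is pumped back into the sarcoplasmic reticulum by SERCA pumps, and creatine kinase restores the ATP that contraction uses. Fast fibres, slow fibres and heart muscle build this machinery from different members of the same gene families, whereas the aortic wall contracts with smooth muscle isoforms. Skeletal muscle fibres are not a layer of the aortic wall.

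Library totals lay between 19295287 and 21727192 counts, and 14609 genes passed the filter on low counts. Where a gene had a count of 0, its upper limit (3 counts) was 0.133 to 0.164 CPM (the usual count rate, on scaled library sizes), for counting error only. The targeted genes went against the labels in part. Nr4a1 was read at 46.2, 57.0, 90.1 and 92.7 CPM in DKO 1 to DKO 4, against 193, 56.4 and 111 CPM in ApoE 1 to ApoE 3 (adjusted p = 0.360 by edgeR's quasi-likelihood test). Apoe was read at 34.7, 18.3, 33.8 and 28.1 CPM in DKO 1 to DKO 4, against 233, 250 and 184 CPM in ApoE 1 to ApoE 3 (log2 fold change -2.95, SE 0.23, edgeR adjusted p = 0.0227), so that the groups also differed in Apoe. Directions below are therefore those of the libraries as labelled. Nothing in the labels ties each library to a mouse of its own, so p-values measure the spread between these libraries, which may be technical. The tissue label fitted the smooth muscle genes, with Acta2, the smooth muscle actin, at 3016 to 11779 CPM in the libraries labelled DKO and 6120 to 9190 CPM in those labelled ApoE.

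Promoters are shown for 5 of the genes, Acta1, Myh4 and Atp2a1, whose levels followed each other across libraries, and Ckm and Myl1, which departed from them (values below). Each runs from 250 bases before to 50 bases after the RefSeq start site on GRCm38.p6, 5′ to 3′ on the gene's strand. They lie at chr8:123894726-123895025 (minus strand, Acta1), chr11:67237562-67237861 (plus strand, Myh4), chr7:126463024-126463323 (minus strand, Atp2a1), chr7:19410844-19411143 (plus strand, Ckm) and chr1:66945007-66945306 (minus strand, Myl1, at a start site inside the gene). Capitals mark the E-box CAGCTG, the MEF2 consensus and the CArG box, which are letter patterns read by myogenic bHLH factors, MEF2 factors and serum response factor.
Acta1: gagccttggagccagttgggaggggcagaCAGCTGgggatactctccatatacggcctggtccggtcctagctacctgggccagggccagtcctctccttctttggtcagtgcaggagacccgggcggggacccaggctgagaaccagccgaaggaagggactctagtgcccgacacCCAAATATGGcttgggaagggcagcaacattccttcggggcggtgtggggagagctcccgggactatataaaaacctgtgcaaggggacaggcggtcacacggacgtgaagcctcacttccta
Myh4: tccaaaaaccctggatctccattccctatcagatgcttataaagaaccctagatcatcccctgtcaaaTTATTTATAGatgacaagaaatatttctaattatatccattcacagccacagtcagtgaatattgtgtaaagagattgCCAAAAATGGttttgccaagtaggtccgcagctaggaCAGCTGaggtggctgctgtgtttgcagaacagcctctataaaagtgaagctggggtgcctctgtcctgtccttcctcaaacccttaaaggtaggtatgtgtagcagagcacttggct
Atp2a1: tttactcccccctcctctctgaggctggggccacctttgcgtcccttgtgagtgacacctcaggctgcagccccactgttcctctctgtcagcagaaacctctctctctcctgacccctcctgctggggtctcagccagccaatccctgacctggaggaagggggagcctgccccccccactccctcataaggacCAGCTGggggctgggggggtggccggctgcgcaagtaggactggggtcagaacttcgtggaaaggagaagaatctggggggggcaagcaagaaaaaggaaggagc
Ckm: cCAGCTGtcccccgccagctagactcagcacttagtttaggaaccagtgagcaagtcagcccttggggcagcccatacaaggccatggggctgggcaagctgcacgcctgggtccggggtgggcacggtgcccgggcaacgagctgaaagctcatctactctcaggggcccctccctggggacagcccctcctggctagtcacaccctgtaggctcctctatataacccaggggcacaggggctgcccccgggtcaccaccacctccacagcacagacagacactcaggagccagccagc
Myl1: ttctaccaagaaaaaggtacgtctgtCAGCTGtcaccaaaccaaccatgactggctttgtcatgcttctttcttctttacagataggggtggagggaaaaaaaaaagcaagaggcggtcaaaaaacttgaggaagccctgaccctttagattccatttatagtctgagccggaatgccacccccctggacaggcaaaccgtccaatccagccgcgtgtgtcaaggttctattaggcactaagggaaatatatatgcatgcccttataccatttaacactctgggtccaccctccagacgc
All 5 windows held a CAGCTG, as did 6 of the 8 genes of the set with a RefSeq window (Tnnt3 and Tnni2 had no entry), against 16.3% of 32851 promoter windows of that length. A CArG box was found in the windows of Acta1 and Myh4, at -73 and -104 bases from the start site, against 1.63% of all windows. Only the Myh4 window held the MEF2 consensus (3.19% of all windows). The wider E-box CANNTG, which includes CAGCTG, was in 7 of the 8 windows and in 72.3% of all windows. Both strands were searched, and a match shows letters, not binding.

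The motor proteins of fast fibres were at low levels that differed strongly from library to library, in both genotypes. Myh4, the heavy chain of the fastest (type IIb) fibres, lies at chromosome 11, 67237812 to 67260447 (GRCm38.p6, as for all positions here). It was read at 6.03, 0, 0.932 and 0.0511 CPM in DKO 1 to DKO 4, against 0.298, 0.0460 and 6.60 CPM in ApoE 1 to ApoE 3, from 126, 0, 21 and 1 counts against 6, 1 and 121 counts. DKO 1 and ApoE 3 thus stood at like levels, DKO 3 was intermediate, and the other 4 libraries held 6 counts or fewer. Myh2, the heavy chain of fast oxidative (type IIa) fibres, lies in the same cluster (67171027 to 67197517). It was read at 5.07, 0.516, 2.44 and 0.920 CPM in DKO 1 to DKO 4, against 0.595, 0.965 and 4.69 CPM in ApoE 1 to ApoE 3. The groups overlapped, with the highest value in DKO 1 and the lowest in DKO 2.

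Mylpf, the regulatory light chain of fast myosin (chromosome 7, 127208848 to 127214288), was read at 5.03, 0.609, 2.44 and 1.18 CPM in DKO 1 to DKO 4, against 2.13, 0.919 and 5.02 CPM in ApoE 1 to ApoE 3. Acta1, the actin of skeletal thin filaments (chromosome 8, 123891758 to 123894775), was read at 17.3, 1.55, 9.59 and 3.53 CPM in DKO 1 to DKO 4, against 9.82, 1.84 and 25.0 CPM in ApoE 1 to ApoE 3. For both genes DKO 1 and ApoE 3 were highest, DKO 2 was lowest, and each group held high and low libraries. Acta1 is also made in heart muscle.

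The fast troponin subunits followed the same libraries. Tnnc2, the calcium-binding subunit of fast fibres (chromosome 2, 164777161 to 164779734), was read at 6.42, 0.328, 2.40 and 0.869 CPM in DKO 1 to DKO 4, against 1.19, 0.552 and 6.05 CPM in ApoE 1 to ApoE 3. Tnni2, the inhibitory subunit (chromosome 7, 142441816 to 142444410), was read at 5.79, 0.984, 3.73 and 0.818 CPM in DKO 1 to DKO 4, against 1.79, 1.29 and 6.44 CPM in ApoE 1 to ApoE 3. Its neighbour Tnnt3, the tropomyosin-binding subunit (142498771 to 142516213), begins 54361 bases away. Tnnt3 was read at 14.6, 2.81, 8.44 and 3.83 CPM in DKO 1 to DKO 4, against 6.45, 1.38 and 11.9 CPM in ApoE 1 to ApoE 3. In all 3 subunits DKO 1, ApoE 3 and DKO 3 were the 3 highest libraries.

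Atp2a1 encodes SERCA1, the calcium pump of fast fibres (chromosome 7, 126445858 to 126463103). It was read at 15.5, 0.141, 6.93 and 0.307 CPM in DKO 1 to DKO 4, against 0.992, 0.276 and 14.0 CPM in ApoE 1 to ApoE 3, and had 3 to 6 counts in DKO 2, DKO 4 and ApoE 2 but 156 to 323 in DKO 3, ApoE 3 and DKO 1. It thus had a wide range between libraries without any separation of the genotypes.

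Ckm and Myl1 departed from this pattern. Ckm, the muscle creatine kinase of fibres and heart (chromosome 7, 19411094 to 19421583), lies 274661 bases from Apoe. It was read at 11.4, 2.11, 5.02 and 2.61 CPM in DKO 1 to DKO 4, against 4.96, 10.6 and 48.8 CPM in ApoE 1 to ApoE 3. Myl1, an essential light chain of fast myosin (chromosome 1, 66924295 to 66947932), was read at 15.03, 13.7, 9.06 and 11.9 CPM in DKO 1 to DKO 4, against 19.9, 22.9 and 77.2 CPM in ApoE 1 to ApoE 3. ApoE 3 was far above every other library for both genes, and the groups did not overlap for Myl1, 1 of the 10 genes, as for 16.3% of all genes tested.

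**Figure D1:**
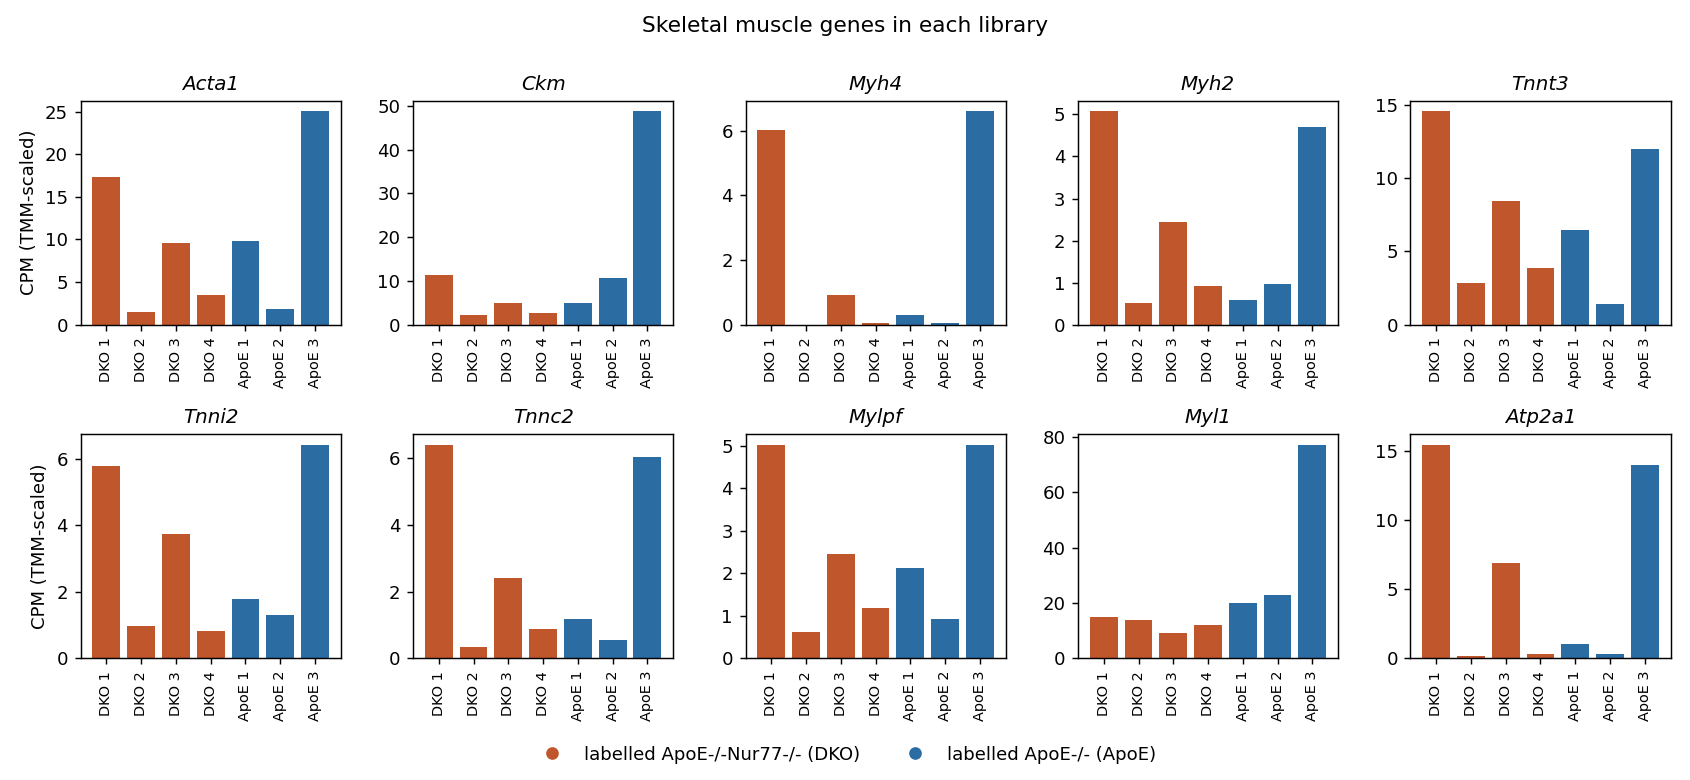
CPM of each of the 10 skeletal muscle genes (y axis, scaled library sizes, own scale per gene) in the 4 libraries labelled DKO and the 3 labelled ApoE, 1 bar a library. DKO 1 and ApoE 3 stand at like heights for 7 genes (for Myh4 6.03 and 6.60 CPM), Acta1 is at 17.3 and 25.0 CPM, and for Ckm and Myl1 ApoE 3 (48.8 and 77.2 CPM) is far above the rest.

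For 7 of the 10 genes (Myh4, Myh2, Tnnt3, Tnni2, Tnnc2, Mylpf and Atp2a1) DKO 1, DKO 3 and ApoE 3 were the 3 highest libraries, as in 1.59% of the 14609 genes tested. For Acta1 the third was ApoE 1 (9.82 CPM) rather than DKO 3 (9.59 CPM), for Ckm it was ApoE 2, and for Myl1 the 3 highest were the 3 libraries labelled ApoE. The highest library was DKO 1 for 5 genes and ApoE 3 for 5, and the lowest was DKO 2 for 7. Between these 2 libraries the levels of the fast fibre genes were close. The ratio of DKO 1 to ApoE 3 ran from 0.90 (Tnni2) to 1.22 (Tnnt3) for the 7 genes and was 0.692 for Acta1 (95% exact interval 0.601 to 0.796), 0.234 for Ckm (0.202 to 0.270) and 0.195 for Myl1 (0.172 to 0.220). These intervals cover counting error and compare 2 libraries, not the genotypes. In all, the 10 genes held 0.00231% to 0.0195% of a library's counts. In bulk RNA, fewer cells of a type and less RNA per cell cannot be told apart.

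Levels per length put the light chain, the kinase and the actin first. Over the 7 libraries the mean level in FPKM (fragments scaled to transcript length and library size, as deposited) was 7.19 for Myl1, 5.95 for Ckm, 4.06 for Acta1 and 2.70 for Tnnc2. Mylpf, Atp2a1, Tnnt3 and Tnni2 followed at 1.48, 1.10, 1.08 and 0.843 FPKM, and Myh2 and Myh4 were lowest at 0.192 and 0.179 FPKM. The order was not the same in each library: in DKO 1 Acta1 (8.14 FPKM), Tnnc2 (7.10 FPKM) and Ckm (6.36 FPKM) stood above Myl1 (4.04 FPKM), whereas in DKO 2 Myl1 (4.04 FPKM) stood above Ckm (0.961 FPKM) and Acta1 (0.597 FPKM). Neighbours in the mean order differed by less than their spread, since the SD of Myl1 in the libraries labelled ApoE was 9.75 FPKM and that of Ckm 11.1 FPKM (n = 3 each). Acta1 made up 0.0463% to 1.15% of the summed FPKM of Acta1 and Acta2 in the libraries labelled DKO, and 0.0541% to 0.544% in those labelled ApoE.

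Among the myosin heavy chains of adult fibres, Myh1, the type IIx chain, was the most abundant. Myh1 is not of the 10 and was added after its values were seen. In DKO 1, DKO 3 and ApoE 3, which held 502, 260 and 435 counts of Myh4, Myh1, Myh2 and Myh7 together, Myh1 made up 52.8%, 71.0% and 42.2% of their summed FPKM. Myh4 made up 25.6% in DKO 1, 7.28% in DKO 3 and 28.8% in ApoE 3, while Myh2 stood at 19.8%, 20.9% and 20.2% in these libraries. By counts the share of Myh4 was 25.1% (95% exact binomial interval 21.4% to 29.1%) in DKO 1, 8.08% (5.07% to 12.1%) in DKO 3 and 27.8% (23.7% to 32.3%) in ApoE 3. These intervals cover counting error only and describe single libraries, and Myh4 shares part of its sequence with Myh1. Myh7, a chain of slow fibres and of heart muscle, made up 1.78%, 0.840% and 8.78% of the FPKM in these 3 libraries. The other 4 libraries held 25 to 57 counts of the 4 chains, too few to compare shares.

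**Figure D2:**
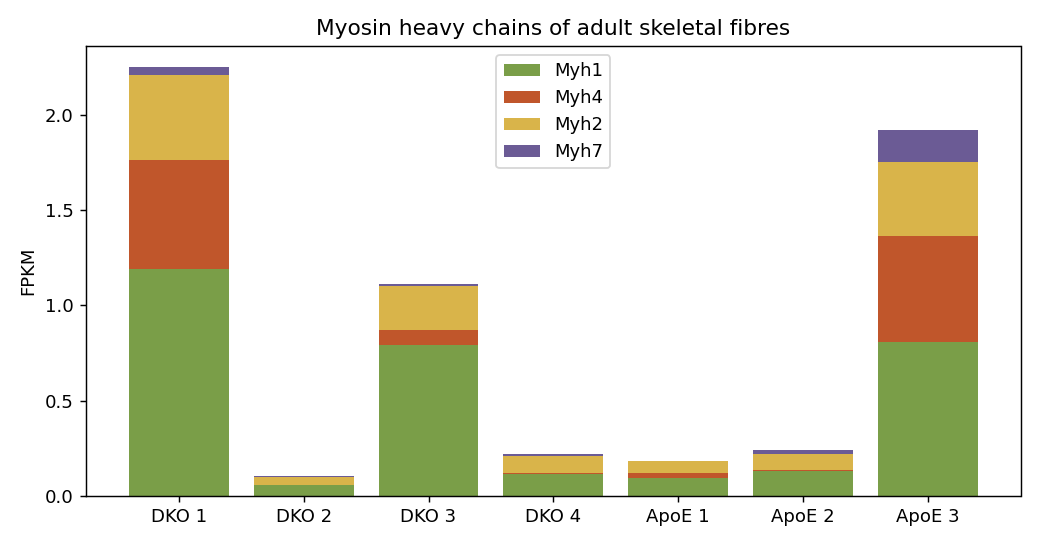
FPKM (y axis) of the myosin heavy chain genes Myh1, Myh4, Myh2 and Myh7 stacked for each library, those labelled DKO on the left. The sums are 2.25 FPKM in DKO 1, 1.11 FPKM in DKO 3 and 1.92 FPKM in ApoE 3, and 0.102 to 0.239 FPKM in the other 4 libraries, with Myh1 the largest part in each.

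No gene of the set passed the test between genotypes. With edgeR's test and Benjamini-Hochberg adjustment over all genes, 0 of 10 were called at an adjusted p under 0.05, beside 0.0274% of all 14609 genes. All 10 had passed the filter on low counts. At an unadjusted p under 0.05 it was 1 of 10, Myl1, against 19.8% of all genes. The log2 fold changes (DKO over ApoE) were negative for 7 genes and positive for 3, with a median of -0.19, beside -0.02 over all genes tested. DESeq2's Wald test called 1 of the 10, Myl1 (8.26% of genes called), and limma voom with quality weights called 0 (16.2% of genes called) with a median log2 fold change over the 10 of 0.44.

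For the 8 genes other than Ckm and Myl1 the fold changes lay between -0.61 and 0.17 on the log2 scale. Acta1 averaged 8.00 ± 7.10 CPM in the libraries labelled DKO and 12.2 ± 11.8 CPM in those labelled ApoE (SD, n = 4 and 3; log2 fold change -0.61, SE 0.97, edgeR adjusted p = 0.765). Tnnc2 averaged 2.50 ± 2.75 and 2.60 ± 3.01 CPM (log2 fold change -0.05, SE 1.10, edgeR adjusted p = 0.983), and Atp2a1 5.71 ± 7.23 and 5.08 ± 7.70 CPM (log2 fold change 0.17, SE 1.65, edgeR adjusted p = 0.964) in the libraries labelled DKO and ApoE. The SD within a group was about as large as its mean. For Myh4 the SE reached 1.83 around a log2 fold change of -0.39 (edgeR adjusted p = 0.926), and the remaining Mylpf, Tnni2, Myh2 and Tnnt3 had log2 fold changes of -0.21, -0.16, 0.11 and 0.17 with edgeR adjusted p of 0.910 to 0.961. The sign turned with single libraries: the median over the 10 was 0.90 without ApoE 3 and -0.996 without DKO 1 (9 genes tested), and the log2 fold change of Atp2a1 was 3.17 without ApoE 3 and -0.996 without DKO 1.

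Ckm and Myl1 had the largest differences of the 10. Myl1 averaged 12.4 ± 2.59 CPM in the libraries labelled DKO and 40.0 ± 32.2 CPM in those labelled ApoE (SD, n = 4 and 3; log2 fold change -1.69, SE 0.48, edgeR adjusted p = 0.159). Its values were lower without overlap in the libraries labelled DKO, as for 9.24% of all genes tested, while none of the 10 was higher without overlap (7.08% of all genes). DESeq2's Wald test gave an adjusted p of 0.0120 for it, and the range over all alternatives was 0.0120 to 0.564. Ckm averaged 5.28 ± 4.27 CPM in the libraries labelled DKO and 21.4 ± 23.8 CPM in those labelled ApoE (log2 fold change -2.02, SE 0.87, edgeR adjusted p = 0.253). Both values rested on ApoE 3. Without ApoE 3 the log2 fold change was -0.79 for Myl1 (SE 0.21, edgeR adjusted p = 0.451) and -0.56 for Ckm (SE 0.71, edgeR adjusted p = 0.782). For Myl1 ApoE 1 and ApoE 2 (19.9 and 22.9 CPM) still lay above every library labelled DKO (at most 15.03 CPM). With ApoE 2 also left out the log2 fold change was -0.68 for Myl1 and 0.088 for Ckm.

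**Figure D3:**
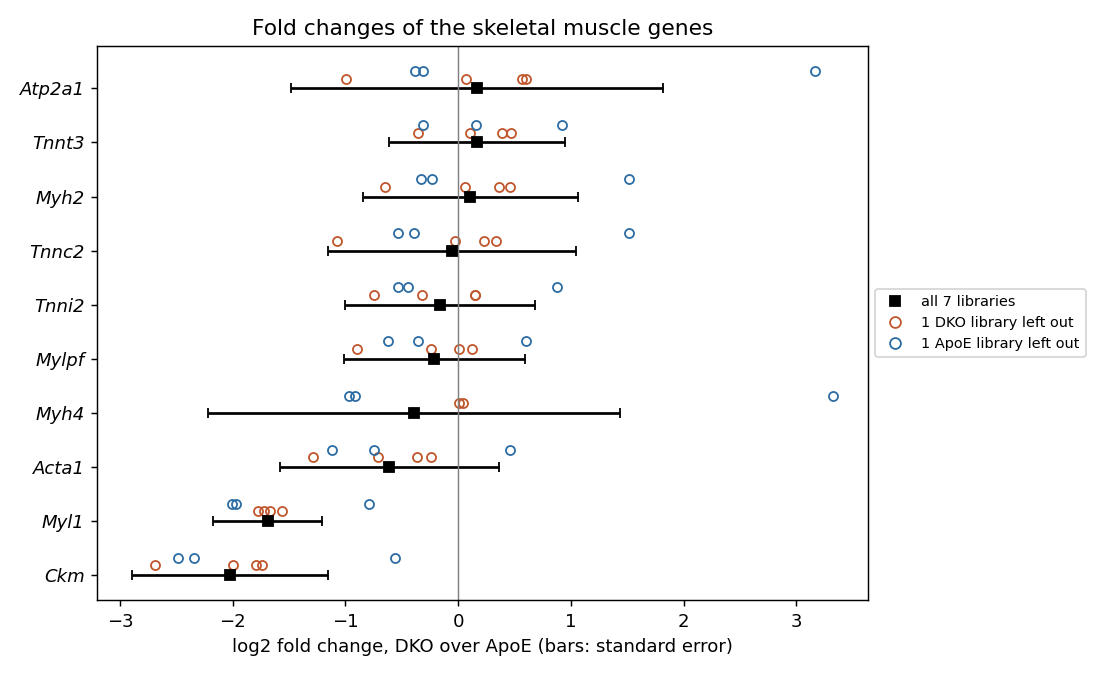
Log2 fold change, DKO over ApoE (x axis), of the 10 skeletal muscle genes with all 7 libraries (black squares, bars are the standard error) and with 1 library left out (open circles, 5 or more a gene). Squares of 8 genes lie between -0.61 and 0.17 with circles on both sides of 0, while all squares and circles of Ckm and Myl1 lie below 0.

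Heart muscle genes shared with Ckm and Myl1 their highest library, ApoE 3, but not the whole order of libraries. The 16 genes of the cardiomyocyte list summed to 91.9, 129, 92.3 and 158 CPM in DKO 1 to DKO 4, against 135, 496 and 1638 CPM in ApoE 1 to ApoE 3. Myh6, a heavy chain of heart muscle, was at 0 to 8.19 CPM in the libraries labelled DKO, against 1.34, 116 and 481 CPM in ApoE 1 to ApoE 3. Myl7, the atrial regulatory light chain, was at 0 to 1.20 CPM in the libraries labelled DKO, and at 0, 29.0 and 112 CPM in ApoE 1 to ApoE 3, and Nppa, the atrial natriuretic peptide gene, had 0 to 2 counts in each library but ApoE 2 (221 counts) and ApoE 3 (367 counts). ApoE 3 and ApoE 2 were the 2 highest libraries for 10 of the 12 cardiomyocyte genes tested, and for 4.72% of all genes. The part of these transcripts in the levels of Ckm and Myl1 was not tested. Relative to ApoE 3, DKO 1 held 23.4% of the Ckm level, 19.5% of the Myl1 level, 5.61% of the cardiomyocyte sum and 94.9% of the sum of the 8 other genes. ApoE 2 held 21.8% of the Ckm level, 29.7% of the Myl1 level, 30.3% of the cardiomyocyte sum and 9.11% of the sum of the 8 other genes. Within the libraries labelled DKO, Ckm was highest in DKO 1 and DKO 3 (23.4% and 10.3%), the 2 libraries with the lowest cardiomyocyte sums (5.61% and 5.63%). Myh6 and Myl7 of that list did not follow its sum there. Myh6 was at 8.19, 4.88, 0.0888 and 0 CPM in DKO 1 to DKO 4, and Myl7 at 1.20, 1.03, 0.0444 and 0 CPM.

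**Figure D4:**
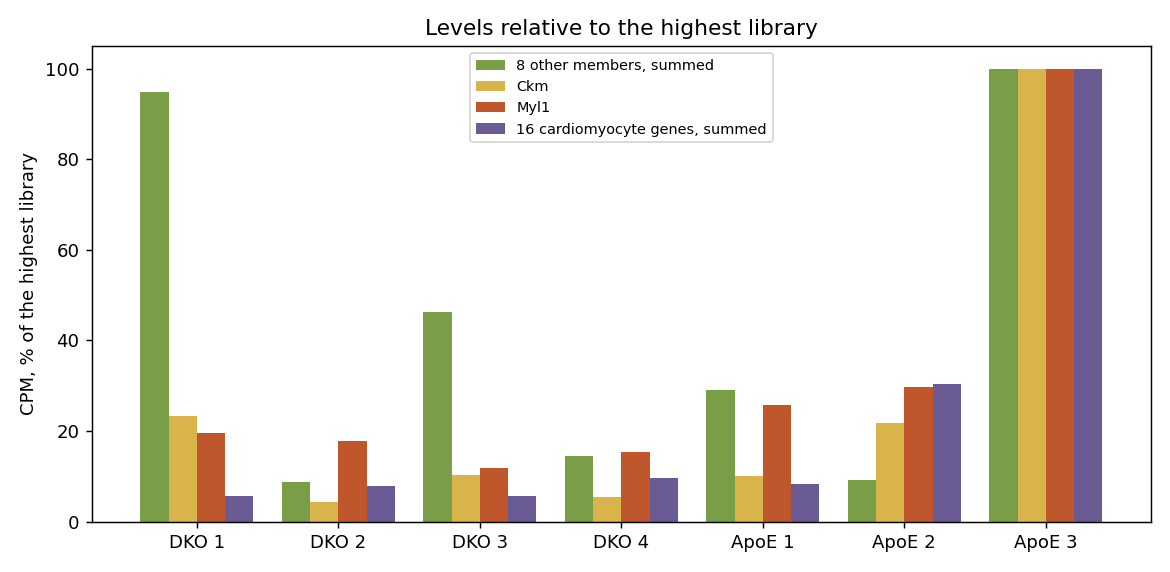
CPM as a percentage of the highest library (y axis) for the sum of the 8 other skeletal genes, Ckm, Myl1 and the sum of the 16 cardiomyocyte genes, per library with those labelled DKO on the left. ApoE 3 is highest for all 4, and DKO 1 reaches 94.9% for the 8 genes, 23.4% for Ckm, 19.5% for Myl1 and 5.61% for the cardiomyocyte genes.

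Within troponin families the fast skeletal share differed between libraries. Tnnc2 made up 89.7%, 21.8%, 96.4% and 68.8% of the summed FPKM of Tnnc2 and Tnnc1, the slow and cardiac subunit, in DKO 1 to DKO 4, against 77.0%, 5.34% and 14.7% in ApoE 1 to ApoE 3. Counts were few in some libraries: 7 of Tnnc2 and 26 of Tnnc1 in DKO 2, 17 and 14 in DKO 4, and 24 and 17 in ApoE 1. In DKO 3 there were 54 and 8. The shares in these libraries are therefore uncertain. Tnni2 made up 46.7%, 10.6%, 59.5% and 12.6% of Tnni2 and the cardiac Tnni3 in DKO 1 to DKO 4, against 29.6%, 3.19% and 3.78% in ApoE 1 to ApoE 3. ApoE 3, with as much Tnnc2 and Tnni2 as DKO 1, had a lower fast share, with Tnnc1 at 37.0 CPM (1.05 CPM in DKO 1) and Tnni3 at 96.1 CPM (5.07 CPM in DKO 1). Tnnt3 and the cardiac Tnnt2 gave shares of 10.6% to 47.7% in the libraries labelled DKO, against 18.9%, 0.965% and 2.91% in ApoE 1 to ApoE 3. The light chain pair differed from the troponins: Myl1 made up 51.8% to 58.4% of Myl1 and Myl4, the atrial and embryonic light chain, in the libraries labelled DKO, against 64.6%, 19.0% and 18.1% in ApoE 1 to ApoE 3. These partner genes were chosen after their values were seen.

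**Figure D5:**
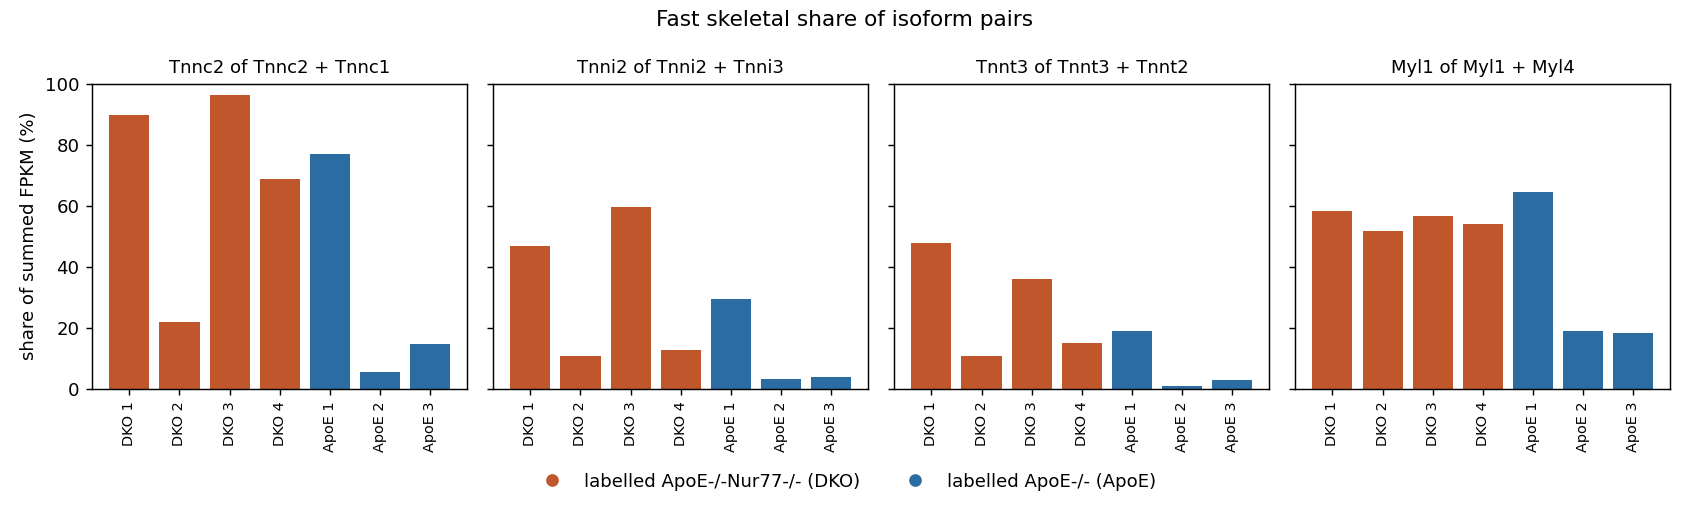
Share of the fast skeletal gene in the summed FPKM of an isoform pair (y axis, percent), per library with those labelled DKO on the left. ApoE 2 and ApoE 3 are low in all 4 pairs (0.965% to 19.0%), and Tnnc2 reaches 96.4% in DKO 3, from 54 counts of Tnnc2 and 8 of Tnnc1.

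Further muscle genes fell under more than 1 order of libraries. They came from 3 lists: 26 genes of fast fibres, 10 of muscle energy supply, and 6 of sarcolipin (Sln) and other myosin or myosin-binding genes. The last list is not limited to fast fibres. Of these 42 genes, 35 could be tested and 0 were called in either direction, beside 0.0274% of all genes (median log2 fold change -0.41). At an unadjusted p under 0.05 it was 12 of the 35, beside 19.8% of all genes. DESeq2, which gave a fold change for all 42, called 9 lower. Of the 13708 genes to which it gave an adjusted p, it called 679 lower (8.26% in both directions). Voom called 3 of the 35 lower, beside 1467 of all 14609 genes (16.2% in both directions). Of these 35, 6 had DKO 1, DKO 3 and ApoE 3 as their 3 highest libraries: Myh1, the calcium buffer Pvalb, the myosin-binding Mybpc1, the giant thin-filament gene Neb, the calcium release channel Ryr1 and Xirp2. Pvalb was at 2.44, 0, 1.20 and 0.0511 CPM in DKO 1 to DKO 4, against 0.149, 0.138 and 1.69 CPM in ApoE 1 to ApoE 3. Another 11 had ApoE 3 and ApoE 2 on top, among them the oxygen store Mb, at 8.86, 2.44, 3.24 and 0.767 CPM in DKO 1 to DKO 4 against 2.13, 38.7 and 135 CPM in ApoE 1 to ApoE 3, and the Z-disc gene Tcap (14.6 ± 10.6 CPM in the libraries labelled DKO and 97.7 ± 87.6 CPM in those labelled ApoE; log2 fold change -2.74, SE 0.78, edgeR adjusted p = 0.160). Myom1 of the sarcomere's M-band and Cav3 of the muscle membrane followed neither order, with Myom1 at 177, 287, 339 and 645 CPM in DKO 1 to DKO 4 against 481, 334 and 472 CPM in ApoE 1 to ApoE 3. Of the 35 genes 7 were lower without overlap in the libraries labelled DKO, beside 9.24% of all genes, among them Tcap and the fatty acid carrier Fabp3 (30.7 ± 9.34 CPM in the libraries labelled DKO and 113 ± 54.3 CPM in those labelled ApoE; log2 fold change -1.88, SE 0.35, edgeR adjusted p = 0.121).

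Of the 25 slow fibre and cardiomyocyte genes 19 were tested and 0 were called, beside 0.0274% of all genes (median log2 fold change -2.48). At an unadjusted p under 0.05 it was 14 of the 19, beside 19.8% of all genes. DESeq2, which gave a fold change for all 25, called 9 lower. Of the 13708 genes to which it gave an adjusted p, it called 679 lower (8.26% in both directions). Voom called 1 of the 19 higher, beside 902 of all 14609 genes (16.2% in both directions). Myh7 had 9, 1, 2 and 2 counts in DKO 1 to DKO 4, against 0, 5 and 54 counts in ApoE 1 to ApoE 3. Tpm3, a tropomyosin of slow fibres that other cells also express, was at 199 to 289 CPM in the libraries labelled DKO and 177 to 203 CPM in those labelled ApoE. The slow troponin genes Tnnt1 and Tnni1 stayed at 0.205 to 1.29 CPM in the libraries labelled DKO and 0.397 to 2.29 CPM in those labelled ApoE. Atp2a2, the pump of slow fibres, heart and smooth muscle, was at 370 to 601 CPM in the libraries labelled DKO and 432 to 705 CPM in those labelled ApoE, and Atp2a1 made up 0.0408% to 4.96% of the FPKM of both pumps in the libraries labelled DKO and 0.0675% to 2.14% in those labelled ApoE.

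Regulators specific to muscle formation and MEF2 factors differed widely in level. Pax7, the marker of muscle stem cells, and Myog, the factor of fibre differentiation, had a count of 0 in all 7 libraries, and Myod1 had 0 to 3 counts. The embryonic and perinatal heavy chains Myh3 and Myh8 had at most 3 and 2 counts in a library. The table held 12 myogenic regulators, of which 5 were tested and 0 were called, beside 0.0274% of all genes. The 5 included Mef2a (165 ± 4.63 CPM in the libraries labelled DKO and 131 ± 14.4 CPM in those labelled ApoE; log2 fold change 0.33, SE 0.09, edgeR adjusted p = 0.161), which many cell types express. Its relatives Mef2d and Mef2c were at 132 to 179 CPM and 69.5 to 89.5 CPM in the libraries labelled DKO, and at 152 to 179.5 CPM and 66.6 to 67.8 CPM in those labelled ApoE.

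Marker lists of other cell types also differed between libraries, and their part in the levels of the 10 genes was not tested. The summed brown adipocyte list ran from 332 to 727 CPM in the libraries labelled DKO and from 823 to 2351 CPM in those labelled ApoE, and the white adipocyte list from 5604 to 8563 CPM in the libraries labelled DKO and from 11190.0 to 14966 CPM in those labelled ApoE. Of these lists, 0 of 10 brown and 0 of 12 white adipocyte genes were called, beside 0.0274% of all genes (median log2 fold changes -1.44 and -1.02). At an unadjusted p under 0.05 it was 8 of the 10 brown and all 12 white adipocyte genes, beside 19.8% of all genes, and 4 and 10 of them were lower without overlap in the libraries labelled DKO, beside 9.24% of all genes. Calls were also 0 of 12 for smooth muscle genes (median -0.30) and 0 of 8 for Schwann cell and nerve genes (median -0.42), beside 0.0274% of all genes. Th and Dbh, enzymes of catecholamine synthesis, were lowest where the fast fibre genes were highest. Dbh was at 2.20, 409, 40.5 and 44.6 CPM in DKO 1 to DKO 4, against 156, 362 and 0.327 CPM in ApoE 1 to ApoE 3.

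Some of the 10 genes share sequence with relatives, and how reads that fit several genes were counted is not given in the sources used here. Of the 50-base windows of the longest GENCODE M21 coding transcript, 26.9% of those of Myh2 and 18.9% of those of Myh4 also occurred in another gene, most often Myh1, and 23.4% of those of Myl1 occurred in the pseudogene Mylf-ps. For Acta1 and Atp2a1 the share was 2.22% and 0.117%, and for Ckm, Tnnt3, Tnni2, Tnnc2 and Mylpf it was 0%. Counts of the heavy chains and of Myl1 are uncertain to that extent.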

How the data were processed

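Abdominal aorta RNA went into TruSeq Stranded mRNA libraries, a kit that marks strand, as the labels' protocols say. Trimmomatic, HISAT2, HTSeq, Cufflinks and DESeq on GRCm38.p6 are named without roles or versions, per the submitters' processing notes. Gene counts were used as deposited, and FPKM values as the authors deposited them. Whether counting used strand is not given in the sources used here.

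Of 21878 genes, 14609 passed edgeR's filterByExpr (minimum count 10). TMM factors scaled the libraries, and edgeR's quasi-likelihood test was applied (4 libraries labelled DKO over 3 labelled ApoE, Benjamini-Hochberg over all genes, threshold 0.05), which was tested on simulated data. CPM uses TMM-scaled library sizes, and standard errors were taken as the size of the log2 fold change divided by the root of its F. Pairs of libraries differed by a chi-square per gene of at least 34.0, so each was counted. Alternatives were DESeq2, voom of limma with quality weights, RLE factors, no count filter or a minimum of 50, the replicate number as a block, libraries left out, and limma on log2(FPKM + 1) or log2(FPKM + 0.1) with a minimum mean of 1 or none. Versions were DESeq2 1.42.0, limma 3.58.1, edgeR 4.0.16 and R 4.3.3. Promoters are from RefSeq (GRCm38.p6).

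The 10 genes and the 13 further lists were chosen with earlier results of these data known. Genes named came from the 3 genes with the highest mean FPKM, a few set markers, and the 8 listed nowhere whose log2 CPM (prior count 2) was most like the mean of the 10. Others (Myh1, Tnnc1, Tnni3, Tnnt2, Myl4, Tnnt1, Tnni1, Pvalb, Mybpc1, Neb, Ryr1, Xirp2) were chosen after their values were seen.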

Additional observations from a re-analysis of the deposited data

Results flagged for a closer look

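In 73 genes named or described here, the 4 libraries labelled DKO were searched for a value far from the rest. A gap to the nearest library above Dixon's critical value was found for 6. Chance flags about 1 in 20 for unrelated genes with normally spread values. Some of the 73 were chosen after their values were seen and some follow each other, so the 6 cannot be set against that rate. Myh4 stood apart in DKO 1 at 6.03 CPM, and Myh7 in the same library at 0.431 CPM, from 9 counts. Th stood apart in DKO 2 at 222 CPM and Dbh at 409 CPM in that library. Mef2a was low in DKO 2 at 158 CPM, and Adipoq was high in DKO 4 at 421 CPM.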

How the results depend on the processing

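The 10 genes gave 1 call in 161 values over 17 alternatives (Myl1 with DESeq2), and 32 values had the opposite sign to the reported one. DESeq2's Wald test called 1132 genes (8.26% of those with an adjusted p). Beside that share it called 1 of the 10, 9 of the 42 further muscle genes and 9 of the 25 slow fibre and cardiomyocyte genes. Limma voom called 2369 genes (16.2%). Beside that share it called 0 of the 10, 3 of the 35 further muscle genes tested and 1 of the 19 slow fibre and cardiomyocyte genes tested. With voom the log2 fold change turned in sign for Myh4 (0.46) and for Tnnc2 and Tnni2 (0.44). Among the genes that kept their sign it was 1.38 for Atp2a1, 1.06 for Myh2 and -0.83 for Ckm. Genes called fell to 0 with the replicate block, with ApoE 2 and ApoE 3 left out together, and with unfiltered FPKM. The replicate block turned the sign for Myh4 (0.13), Tnnc2 (0.10) and Tnni2 (0.16). Deviations from the group means correlated at -0.391, 0.696 and 0.004 for numbers 1 to 3. The value for number 2 was the highest of all pairs, while DKO 1 correlated best with ApoE 3 (0.582). Deviations from means of so few libraries are tied to each other, so whether the numbers pair the samples cannot be decided from them. With ApoE 2 and ApoE 3 left out together, ApoE 1 is assumed to vary like the libraries labelled DKO. The log2 fold change then turned in sign for Ckm (0.088), Myh4 (2.53), Mylpf (0.12), Tnnc2 (1.07) and Tnni2 (0.66). Among the genes that kept their sign it was 2.52 for Atp2a1 and 1.90 for Myh2. With each library left out in turn, the lowest and highest log2 fold changes were -1.29 and 0.46 for Acta1, -0.996 and 3.17 for Atp2a1, -0.65 and 1.51 for Myh2, -0.97 and 3.33 for Myh4 (5 fits), -0.89 and 0.60 for Mylpf, -1.07 and 1.52 for Tnnc2, -0.74 and 0.88 for Tnni2, and -0.36 and 0.92 for Tnnt3. In each of these the highest came without ApoE 3, and the lowest without DKO 1 except for Myh4. Genes called ranged from 0 to 6. The cause was not tested. Counts of 0 to 6 in 4 libraries limit what can be said of Myh4.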

Other observations

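The 8 acetylcholine receptor and synapse genes of the neuromuscular junction summed to 22.7 to 32.5 CPM in the libraries labelled DKO and 20.1 to 27.1 CPM in those labelled ApoE. Of these 8 genes 5 were tested and 0 were called, beside 0.0274% of all genes. Chrna1, the receptor's alpha subunit, was at 1.44, 1.83, 1.95 and 3.27 CPM in DKO 1 to DKO 4, against 1.19, 1.01 and 0.927 CPM in ApoE 1 to ApoE 3 (log2 fold change 1.02, SE 0.36, edgeR adjusted p = 0.190). Chrna1 was thus higher without overlap in the libraries labelled DKO, 1 of the 5 genes, as for 7.08% of all genes. Chrng, the fetal subunit, had no count. Genes of muscle protein breakdown also had 0 called of 5 tested, beside 0.0274% of all genes. Fbxo30 was at 62.3 ± 29.0 CPM in the libraries labelled DKO and 47.7 ± 9.04 CPM in those labelled ApoE (SD, n = 4 and 3).

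Outside the lists, 8 genes were picked whose log2 CPM over the 7 libraries was most like the mean of the 10. Their Pearson's r of 0.914 to 0.980 is a description, since they were picked as the highest. All genes of a library share its depth and tissue makeup, and tissue markers differed between libraries. The 8 genes were BC100451, Jak3, Oxsm, Mcc, Sh2b3, Lmo7, Chmp1a and Slc7a2. Their ranges were narrow beside those of the 10: Jak3, a cytokine receptor kinase, was at 68.9, 55.4, 64.1 and 55.2 CPM in DKO 1 to DKO 4, against 56.7, 55.9 and 75.4 CPM in ApoE 1 to ApoE 3.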
